A study of Mus musculus with 16 samples.

Results

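The transcription factors described here mark the primitive streak and the caudal, or posterior, end of the embryo. They are Mixl1, Mesp1, Mesp2, Msgn1, Gsc, Lhx1, Evx1, Cdx1, Cdx2 and Cdx4, 10 genes of the 18193 that a probe set of the array names alone. They were chosen by gene symbol, and each was read from its brightest probe set, by the mean of the 16 arrays. Of the 10, 7 were above the dim cutoff, a log2 signal of 4, on at least 2 arrays and entered the test with 10802 genes in all. Mesp2, Cdx1 and Cdx4 did not pass it. The 7 passed only through their signal at day 4 of DMSO or shortly after, so their number supports no statement about the 10.

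RNA came from P19CL6 cells, a clonal mouse embryonal carcinoma line that forms beating heart muscle when dimethyl sulfoxide (DMSO) is added. Cells in growth were kept without DMSO by passage every 48 h (n = 3, replicates A, B and C). The other cultures were plated in medium with 1% DMSO, renewed every 48 h, and were harvested at day 4 (n = 3), day 6 (n = 2, B and C), day 8 (n = 3), day 10 (n = 3) or day 12 (n = 2, A and C). The submitters state that the samples of a group were independent. No culture was kept as long without DMSO, so DMSO and time after plating cannot be told apart. In whole cultures, fewer cells that make an RNA and less of that RNA per cell cannot be told apart either. Arrays of a group correlated at 0.956 to 0.992 over the tested genes. Of 8 pluripotent cell markers, 6 were tested and 5 fell by day 4, as did 13.6% of all tested genes. Pou5f1, the central pluripotency factor, lay at 14.12 to 14.50 in growth, whereas Zfp42 was under the cutoff on all 16 arrays and Dppa5a over it on 1, growth replicate B (4.20). Of 8 cardiac muscle markers, all were tested and all rose by day 12, as did 22.5% of all tested genes. Tnnt2, cardiac troponin T, for example, rose by 11.08 on the log2 scale. Day 8 replicate A stood apart: it correlated at 0.992 and 0.990 with the day 6 arrays and at 0.956 and 0.967 with the other day 8 arrays. The counts of members and the Cdx2 differences for day 8 are therefore also given without it, whereas heights over the cutoff, list genes and figures keep it.

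At gastrulation, Wnt, Nodal and BMP signals induce the primitive streak at the posterior side of the epiblast, and cells passing through it become mesoderm and endoderm. Mixl1 is a homeobox factor of the streak, and Mesp1 and its neighbour on the chromosome, Mesp2, are basic helix-loop-helix factors. Mesp1 marks the earliest cardiac mesoderm, whereas Mesp2 is best known for placing somite boundaries. Msgn1 specifies presomitic mesoderm. Gsc and Lhx1 act at the anterior end of the streak, in the organizer and its mesendoderm, and Evx1 marks the posterior streak. The caudal-related homeobox factors Cdx1, Cdx2 and Cdx4 pattern the trunk and tail through Hox genes and maintain the posterior growth zone. Cdx2 also has roles in trophoblast and intestine.

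The RefSeq promoter table (build GRCm38.p6) held 8 of the members. The windows below are the 250 bases before the gene's start, shown because they set the strongly rising Mesp1 beside its neighbour Mesp2, and hold each motif match found among the members. Capitals mark 6-letter matches, on either strand, to TCAAAG (bound by Tcf/Lef factors of the Wnt pathway), to GTGTGA (a T-box core) or to TTTATG (bound by Cdx factors). The windows are Mesp1 at chr7:79793591-79793840, minus strand, Mesp2 at chr7:79810477-79810726, plus strand, Msgn1 at chr12:11208949-11209198, minus strand, and Evx1 at chr6:52313248-52313497, plus strand.
Mesp1: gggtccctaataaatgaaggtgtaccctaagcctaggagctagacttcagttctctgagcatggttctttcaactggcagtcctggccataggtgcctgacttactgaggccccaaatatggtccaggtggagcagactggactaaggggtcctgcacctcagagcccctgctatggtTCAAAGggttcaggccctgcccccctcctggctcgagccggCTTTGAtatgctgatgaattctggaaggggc
Mesp2: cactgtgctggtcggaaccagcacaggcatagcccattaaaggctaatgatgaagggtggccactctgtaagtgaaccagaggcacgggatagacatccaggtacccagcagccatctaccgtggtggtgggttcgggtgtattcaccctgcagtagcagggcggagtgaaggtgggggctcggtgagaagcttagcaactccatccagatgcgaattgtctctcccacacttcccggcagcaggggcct
Msgn1: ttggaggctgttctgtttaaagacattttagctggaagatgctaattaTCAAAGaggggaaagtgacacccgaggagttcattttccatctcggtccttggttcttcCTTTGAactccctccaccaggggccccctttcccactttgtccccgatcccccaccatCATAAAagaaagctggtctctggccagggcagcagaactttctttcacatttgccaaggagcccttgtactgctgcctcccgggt
Evx1: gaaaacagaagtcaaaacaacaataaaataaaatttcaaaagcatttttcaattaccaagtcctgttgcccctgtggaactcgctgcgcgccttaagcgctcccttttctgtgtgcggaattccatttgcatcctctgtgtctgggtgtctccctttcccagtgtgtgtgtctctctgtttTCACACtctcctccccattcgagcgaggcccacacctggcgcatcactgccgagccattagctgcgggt
TCAAAG or its complement stood at positions -72 and -31 from the start of Mesp1 and at -202 and -143 from that of Msgn1. These were the only 2 of the 8 member windows with it, against 13.8% of 32851 promoters of the same length. Msgn1 also held CATAAA, the complement of TTTATG, at -85, a motif found in 10.8% of all promoters. Evx1 held TCACAC, the complement of GTGTGA, at -69, as did 12.3% of all promoters with either strand counted. None of the 8 held TGTGNATT, a Foxh1 motif found in 3.18%. The motifs do not overlap in these windows. The matches describe letters in a window and are not evidence of binding.

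In the cells, 7 of 7 tested members rose from growth to day 4, against 13.3% of all tested genes called higher. The dim filter admitted these 7 only through their signal at day 4 or shortly after. This count and the counts of falls therefore describe the 7 and are no test of the set. A call here needs a difference of at least 1 log2 and, in limma's test with Benjamini-Hochberg adjustment across the 10802 genes, an adjusted p below 0.05. The size of the rise ran from 9.60 log2 for Mixl1 to 2.49 for Msgn1. By day 6, 5 of the 7 had fallen from day 4, against 2.61% of all genes called lower, and at days 10 and 12 no tested member was called above growth. Cdx2 was not called lower than day 4 until day 8.

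**Figure D1:**
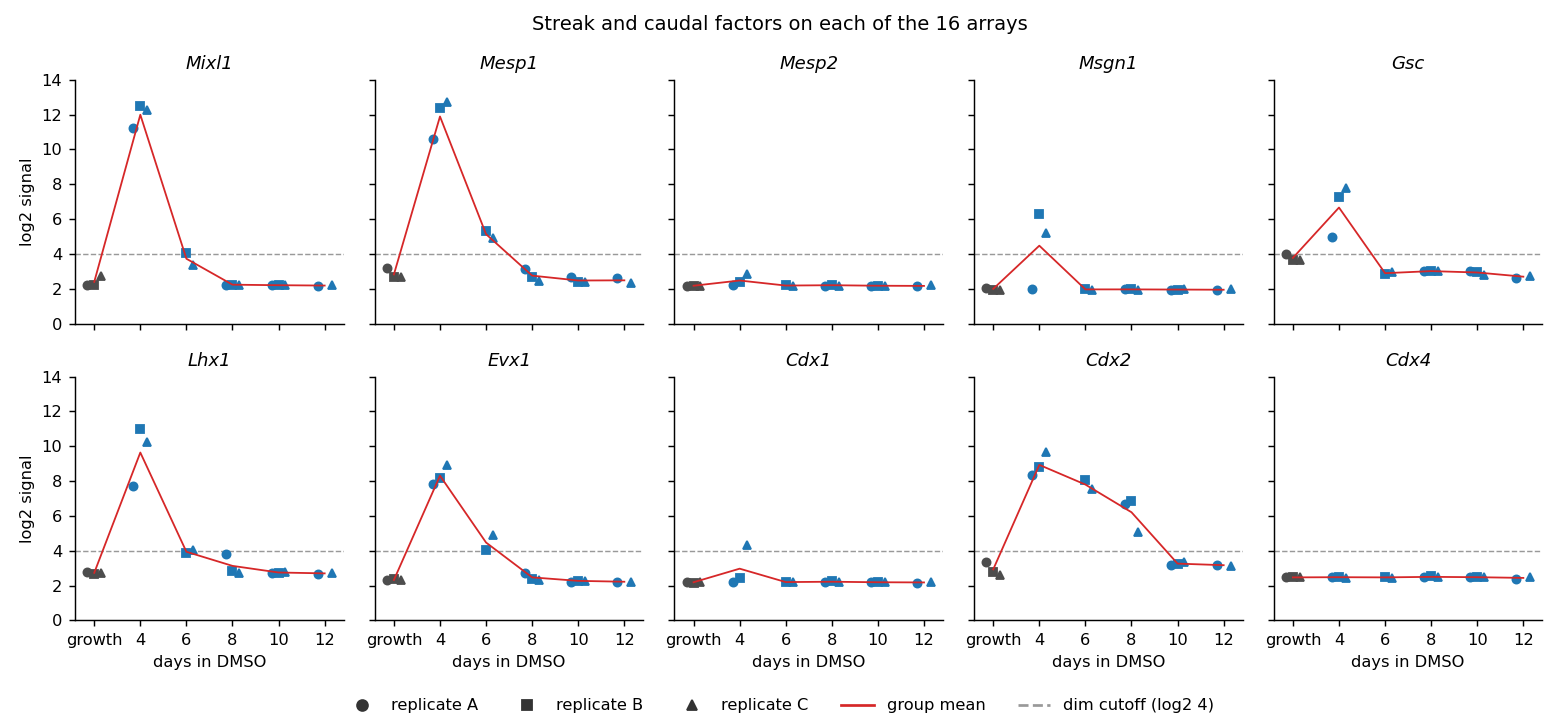
Log2 signal of the 10 members on each of the 16 arrays, against days in DMSO; symbols give the replicate letter, red lines join group means and the dashed line is the dim cutoff of 4. Mixl1, Mesp1, Gsc, Lhx1 and Evx1 stand above the cutoff on all 3 day 4 arrays and below it from day 8, Cdx2 stays above it to day 8, and Mesp2 and Cdx4 never cross it.

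Mixl1 read 2.23, 2.21 and 2.74 in growth and 11.20, 12.48 and 12.28 at day 4, replicates A, B and C in turn. The day 6 arrays read 4.06 (B) and 3.38 (C), and the 8 arrays of days 8 to 12 lay between 2.14 and 2.24. Every day 4 array stood far above every other array. At day 6 the signal was under the cutoff in replicate C but still just over it in replicate B. The rise of 9.60 ± 0.28 log2 (SE, adjusted p = 2.02e-11) started from dim growth arrays, so it can only be read as a bound: with values under 4 set to 4 it was at least 254-fold. The fall from day 4 to day 6, -8.27 ± 0.31 log2 (SE, adjusted p = 5.23e-09), was called. Day 6 was still called above growth (1.33, adjusted p = 0.00372). That call rested on values near or under the cutoff: with values under 4 set to 4 the difference was 0.03 (adjusted p = 0.996), and without day 6 replicate B it was 0.99 (adjusted p = 0.0687).

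Mesp1, the cardiac mesoderm factor, read 3.16, 2.65 and 2.66 in growth and 10.60, 12.38 and 12.71 at day 4. Its day 6 arrays read 5.32 and 4.94, and those of days 8 to 12 lay between 2.32 and 3.12. Unlike Mixl1, both day 6 arrays were still above the cutoff, and the arrays of day 6 overlapped neither growth nor day 4. The rise of 9.07 ± 0.41 log2 (SE, adjusted p = 1.39e-09) was at least 238-fold. Day 6 was 6.77 log2 below day 4 (SE 0.46, adjusted p = 8.97e-07), and 2.30 log2 above growth (adjusted p = 0.00114). Its paralog Mesp2 was above the cutoff on 0 of 16 arrays. Mesp2 read 2.19, 2.37 and 2.86 at day 4 and 2.13 to 2.22 elsewhere, and without the dim filter its adjusted p at day 4 was 0.109. Hybridization of a dim probe set gives only an upper bound on the signal, so these values do not show that Mesp2 RNA was absent.

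Msgn1, the presomitic mesoderm factor, was above the cutoff on 2 arrays: day 4 read 1.96, 6.28 and 5.18, and the 13 other arrays lay between 1.92 and 2.06. Replicate A was no higher at day 4 than the growth arrays, so the groups overlapped. The difference of 2.49 ± 0.71 log2 was called (adjusted p = 0.0105), and it was at least 2.22-fold with values under 4 set to 4. In a fit of growth and day 4 alone it was not (adjusted p = 0.1003). Without day 4 replicate A it was 3.74 (adjusted p = 9.29e-08), and without replicate B or C the gene no longer passed the dim filter. The difference between day 6 and day 4 was -2.51 ± 0.80 log2 (adjusted p = 0.0751), and -3.77 without day 4 replicate A (adjusted p = 8.07e-07).

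Of the organizer factors, Gsc read 3.98, 3.65 and 3.67 in growth, 4.95, 7.25 and 7.78 at day 4 and 2.82 and 2.96 at day 6, with 2.63 to 3.04 afterwards. All 3 day 4 arrays stood above all others, replicate A by the least. The rise was 2.89 ± 0.49 log2 (SE, adjusted p = 0.000284), at least 6.33-fold. Its fall by day 6 was 3.77 log2 by the model (adjusted p = 0.000671), also at least 6.33-fold, and was not called in a fit of days 4 and 6 alone (adjusted p = 0.0860). Lhx1 read 2.78, 2.69 and 2.72 in growth, 7.71, 10.98 and 10.23 at day 4 and 3.85 and 4.04 at day 6. Of the later arrays, day 8 replicate A read 3.79 and the others 2.67 to 2.85. Lhx1 rose by 6.91 ± 0.58 log2 (SE, adjusted p = 6.11e-07), at least 49.8-fold, and by day 6 had fallen by 5.70 log2 (SE 0.65, adjusted p = 9.45e-05). Its second probe set gave 5.51, 8.91 and 8.45 at day 4 and 2.60 and 2.41 at day 6, which at day 4 is the same order of replicates.

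Evx1, the posterior streak factor, read 2.29, 2.36 and 2.29 in growth and 7.83, 8.19 and 8.92 at day 4. It read 4.02 and 4.92 at day 6, 2.71, 2.40 and 2.30 at day 8 (A, B and C) and 2.22 to 2.29 later. Day 4 replicates were closer together than for the organizer factors, and day 6 stood between day 4 and the dim arrays that followed. The rise was 6.00 ± 0.26 log2 (SE, adjusted p = 9.57e-10), at least 19.9-fold, and the change from day 4 to day 6 was -3.84 ± 0.29 (SE, adjusted p = 2.14e-06). Day 6 was 2.15 above growth (adjusted p = 5.14e-05), or 0.47 with values under 4 set to 4 (adjusted p = 0.194).

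Cdx2 read 3.38, 2.77 and 2.63 in growth, 8.33, 8.80 and 9.65 at day 4 and 8.05 and 7.56 at day 6. At day 8 it read 6.69 (A), 6.86 (B) and 5.06 (C), and at days 10 and 12 it was dim again at 3.15 to 3.34. The day 6 arrays lay just below the lowest day 4 array, and all 8 arrays of days 4 to 8 stood above all 8 others. The rise was 6.00 ± 0.42 log2 (SE, adjusted p = 9.77e-08), at least 30.4-fold. From day 4 to day 6 the difference was -1.13 log2 (95% interval -2.13 to -0.12, adjusted p = 0.191), which was not called. Day 6 was still at least 13.9-fold above growth (4.87 log2, adjusted p = 2.75e-06) and day 8 at least 4.62-fold (3.28 log2, adjusted p = 2.21e-05). A second Cdx2 probe set read 5.87, 7.08 and 8.56 at day 4, 5.85 and 6.62 at day 6 and 4.63, 4.73 and 2.43 at day 8 (A, B and C). It was thus lowest at day 8 in replicate C as well. Of the other caudal genes, Cdx1 crossed the cutoff on 1 array: day 4 read 2.20, 2.41 and 4.31, and all others 2.15 to 2.24. Cdx4 lay between 2.39 and 2.52 on every array. Without the dim filter the adjusted p at day 4 was 0.207 for Cdx1 and 0.980 for Cdx4.

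**Figure D2:**
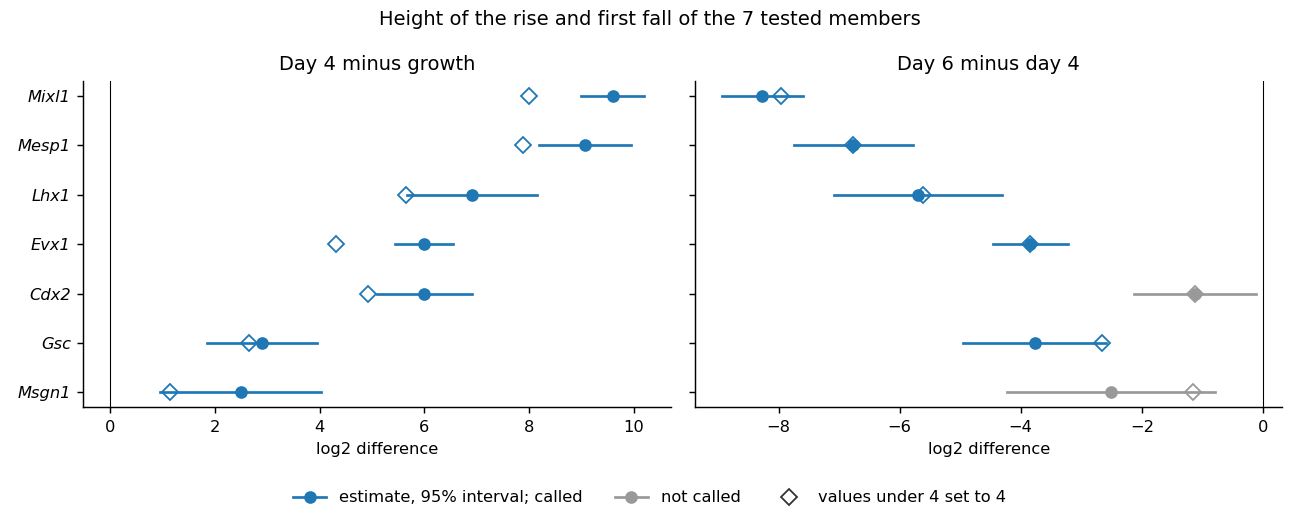
Log2 difference from growth to day 4 (left) and from day 4 to day 6 (right) for the 7 tested members, with 95% intervals; grey marks differences that were not called, and open diamonds repeat the difference of group means with values under 4 set to 4. Mixl1 has the largest difference in both panels, and Cdx2 and Msgn1 are the members with no called fall by day 6.

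All growth arrays were dim for these 7 genes, so the heights of the rises are bounds that depend on the cutoff. With values under 4 set to 4, the day 4 means lay over the cutoff by 7.99 log2 for Mixl1, 7.89 for Mesp1, 5.64 for Lhx1, 4.93 for Cdx2, 4.31 for Evx1, 2.66 for Gsc and 1.15 for Msgn1. Heights of different genes are not comparable, so this order describes probe set signals and does not rank amounts of RNA. The day 4 SD was 1.14 for Mesp1, 1.71 for Lhx1, 0.55 for Evx1 and 1.51 for Gsc. Differences in height between genes read on the same arrays were not tested.

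Heights over the cutoff also describe the decay, with the same dependence on the cutoff. At day 6 the mean height was 0.03 log2 for Mixl1 and 0.02 for Lhx1, each from 1 array just over 4, and 0.47 for Evx1 and 1.13 for Mesp1, and Gsc and Msgn1 were under the cutoff. For Cdx2 it was 3.80 at day 6, 2.21 at day 8 and 0 at day 10. The other 6 were under the cutoff from day 8. Against growth, the members called higher numbered 4 of 7 at day 6 (14% of all genes) and 1 of 7 at day 8, which was Cdx2 (16%). They numbered 0 of 7 at days 10 (18.5%) and 12 (22.5%). Without day 8 replicate A, Cdx2 was still the only tested member called at day 8 (3.04 log2, adjusted p = 0.000114). Over all genes, 1727 were called higher at day 8 in the main fit and 1518 to 1870 under the alternatives. Setting values under 4 to 4 left 2 of 7 at day 6, Mesp1 and Cdx2. Against day 4, 7 of 7 were called lower at day 8 (5.9% of all genes), day 10 (12.5%) and day 12 (13.2%). Since the dim filter admitted the members through day 4 or shortly after, these counts are a description and no test against the shares. The difference for Cdx2 at day 8 was -2.72 log2 (adjusted p = 0.000416). Without day 8 replicate A it was -2.96 (adjusted p = 0.000345), and 7 of 7 were still called lower at day 8. Over all genes, 637 were called lower in the main fit and 426 to 798 under the alternatives. The comparisons with day 4 share its 3 arrays, as those with growth share theirs. The call for Msgn1 was the least stable of these, with an adjusted p of 0.0203 at day 8 that reached 0.157 in a fit of days 4 and 8 alone.

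**Figure D3:**
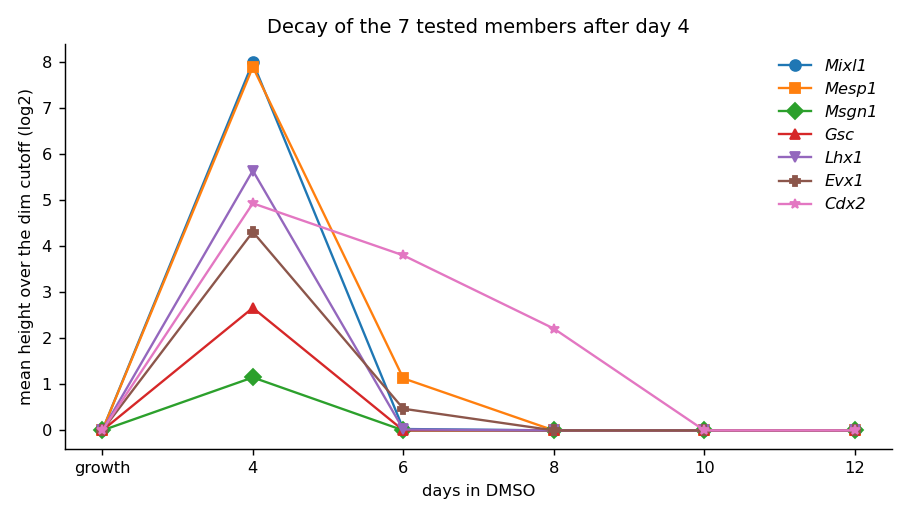
Mean height of the 7 tested members over the dim cutoff of log2 4, with array values under 4 set to 4, against days in DMSO. The lines for 6 members reach or come near 0 by day 6 or day 8, and Cdx2 falls from 4.93 through 3.80 and 2.21 to 0 at day 10.

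From day 6 to day 8, 1 of 7 members was called lower, Evx1 (a difference of -2.0 ± 0.29 log2, SE, adjusted p = 0.0461). Over all genes 0.0185% were called, which is 2 genes, the other being Irf1. The Evx1 call was lost under 16 of 26 other settings. Without day 8 replicate A, the array that correlated best with day 6, 209 genes were called lower and 4 of the members: Mixl1 (-1.50), Mesp1 (-2.56), Evx1 (-2.12) and Cdx2 (-1.84, adjusted p = 0.0403). The highest Cdx2 signal of day 8 was in replicate B, not in A.

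The members' own differences were also set against each other. From day 4 to day 6 the difference was between -8.27 log2 (Mixl1) and -3.77 (Gsc) for the 5 members that fell, and -1.13 for Cdx2. With values under 4 set to 4, the Cdx2 signal minus that of another member changed from day 4 (3 arrays) to days 6 and 8 (5 arrays) by 5.89 log2 for Mixl1, 5.36 for Mesp1, 3.55 for Lhx1, 2.04 for Evx1, 0.58 for Gsc and -0.93 for Msgn1. These changes were chosen after the course of Cdx2 had been seen and are a description with no test. The other members were under the cutoff by day 8, so none could fall by more than its day 4 height. The changes repeat the order of those heights and do not compare speeds of decay. Gsc and Msgn1 had the least height over the cutoff to lose. Without day 8 replicate A the changes for Mixl1, Mesp1 and Lhx1 were 5.93, 5.29 and 3.58, and without day 4 replicate A 5.99, 5.71 and 4.21. Mesp2 and Cdx4 were under the cutoff on every array and Cdx1 on all but 1, so whether the paralogs of Mesp1 and Cdx2 changed less than they did could not be tested.

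Other streak genes moved at the same time. Of the listed streak signals and their effectors, 21 were tested, 12 rose and 4 fell by day 4 (median 1.73 log2, against 0 over all tested genes), and 5 fell and 0 rose from day 4 to day 6. Of all tested genes, 13.3% rose and 13.6% fell by day 4, and 3.52% rose and 2.61% fell from day 4 to day 6, the shares against which each list's counts stand. Sp5, a Wnt target gene, went from 2.42 ± 0.01 in growth to 9.04 ± 1.08 at day 4 and 4.01 ± 0.14 at day 6 (mean log2 signal ± SD, n = 3, 3 and 2), and Fgf8, an FGF ligand of the streak, from 2.10 ± 0.01 to 7.91 ± 1.57 and 3.52 ± 0.24. Both fell at day 6 by the test (adjusted p = 3.69e-06 and 0.000289). Rspo3, which enhances Wnt signalling, rose by 5.99, with a further difference of -1.35 at day 6 (adjusted p = 0.125). Lefty1, a Nodal inhibitor, was high in growth and fell by 6.04. Of the T-box and other streak factors, 13 were tested, of which 9 rose and 1 fell by day 4 (median 3.90), and 5 fell and 1 rose by day 6. Snai1, a driver of the epithelial to mesenchymal transition, rose by 7.47 and had fallen by 3.85 at day 6 (adjusted p = 0.000969), and Aplnr, a receptor of migrating mesoderm, rose by 9.10 and had fallen by 4.15 (adjusted p = 0.00109). Tbx3 rose by 6.80, and its day 6 difference of -0.69 was not called (adjusted p = 0.553). T itself, the brachyury gene, was not analysed here.

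Among 13 tested paraxial mesoderm and somite clock genes of 21 on the array, 8 rose and 0 fell by day 4 (median 1.82), and 6 fell and 0 rose by day 6 (median -1.34). Tbx6, which acts with Msgn1 in presomitic mesoderm, rose by 6.58 and was dim by its mean at day 6 (2.90 ± 0.80, SD, n = 2). Dll3 and Dll1, Notch ligands of the segmentation clock, rose by 5.32 and 4.05 and fell by 6.04 and 2.93 at day 6 (adjusted p = 4.2e-05 and 0.0339). Cyp26a1, which breaks down retinoic acid in the tail bud, rose by 9.47. Among 6 tested organizer and anterior mesendoderm genes of 11 on the array, 4 rose and 1 fell. Dkk1, a Wnt antagonist, rose by 6.47, Fst by 3.94 and Frzb by 3.71, whereas Otx2, an anterior factor already present in growth, fell by 4.06. Cer1, Chrd and Hhex, which mark the organizer and anterior mesendoderm, were under the cutoff on all 16 arrays. Foxa2 and Shh were over it on 1 array each (4.79 at day 8, replicate B, and 4.03 at day 12, replicate A), so all 5 were under it at day 4, when Gsc and Lhx1 were high.

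Of 16 cardiac mesoderm genes, 10 rose and 0 fell by day 4 (median 2.84), 5 rose and 1 fell from day 4 to day 6, and 14 were above growth at day 12 (median 5.03), as were 22.5% of all genes. Tbx20, a cardiac T-box factor, was at 7.38 ± 0.85 at day 4 and 9.73 ± 0.10 at day 6 (SD, n = 3 and 2), while Mesp1 fell. Gata4, another cardiac factor, stood at 8.25 ± 0.63 and 7.46 ± 0.20, which was not called different (adjusted p = 0.157). Kdr, a receptor of early vascular and cardiac mesoderm, was the member of that list that fell by day 6 (-3.58, adjusted p = 0.000336). Of 10 tested Hox genes of groups 4 to 9, which lie downstream of Cdx factors in the embryo, 3 rose by day 4 and 7 were above growth at day 6, as were 13.3% and 14% of all genes. Hoxd9 was at 10.29 ± 0.25 at day 4, 8.96 ± 0.05 at day 6, 6.86 ± 1.55 at day 8 and 4.49 ± 0.73 at day 10 (SD, n = 3, 2, 3 and 3). Hoxd8 rose by 5.28 and Hoxb9 by 2.37 at day 4, and neither changed by the test from day 4 to day 6. Hoxa9 had not risen at day 4 (3.99 ± 1.14) and stood at 8.77 ± 0.13 at day 6 (SD, adjusted p = 0.00186 against day 4). Hoxb4 took another course than Cdx2, from 4.21 ± 0.27 at day 4 to 7.69 ± 0.27 at day 10 (SD, n = 3 and 3), when Cdx2 was dim.

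**Figure D4:**
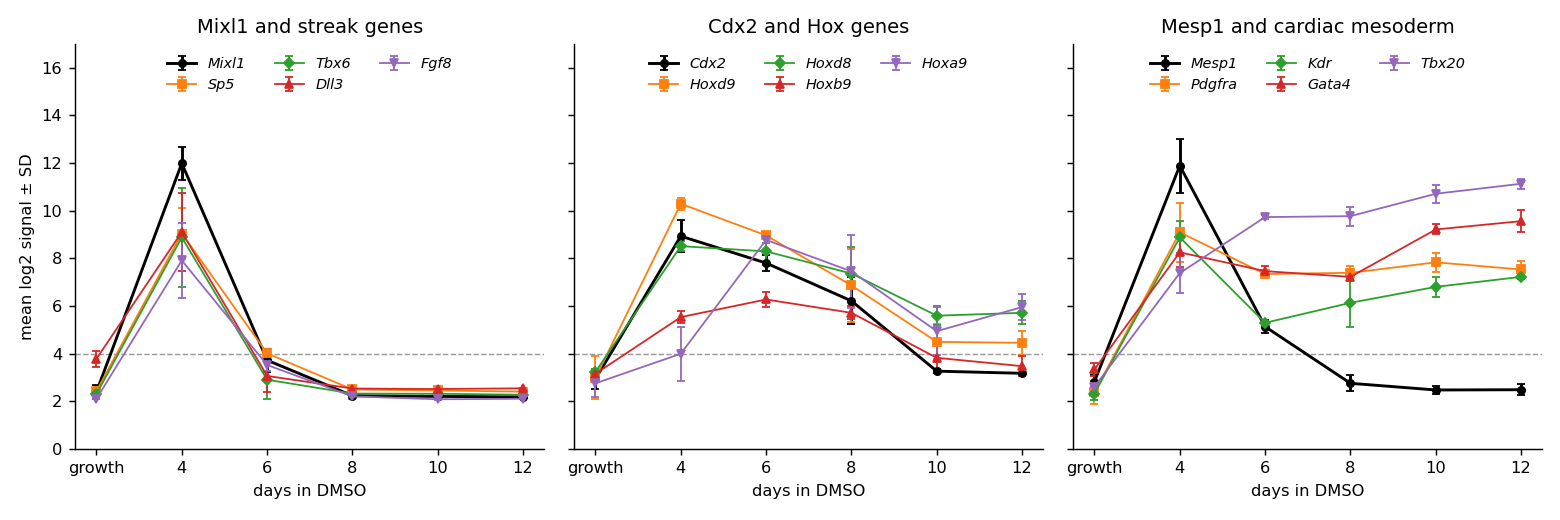
Mean log2 signal ± SD against days in DMSO for Mixl1 with 4 streak and presomitic genes, Cdx2 with 4 Hox genes and Mesp1 with 4 cardiac mesoderm genes (n = 3, or 2 at days 6 and 12; the dashed line is the dim cutoff; heights of different genes are not comparable). Sp5, Tbx6, Dll3 and Fgf8 peak with Mixl1 at day 4. By their means, Cdx2 and the 4 Hox genes are above the cutoff at day 8. Hoxd9, Hoxd8 and Hoxa9 are still above it at days 10 and 12, when Cdx2 is under it. Tbx20 goes from 7.38 at day 4 to 11.13 at day 12, while Mesp1 goes from 11.89 to under the cutoff.

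Cdx2 is also a gene of trophoblast and intestine. Of 12 trophoblast markers on the array 7 were tested, and 3 rose by day 4, Eomes by 3.90, Gata3 by 2.58 and Gata2 by 1.65, all of which mesoderm can also express, while Elf5, Tead4, Ascl2 and Esrrb were under the cutoff on all 16 arrays. From day 4 to day 6, 2 of the 7 rose and 1 fell. The keratins Krt8 and Krt18, which other epithelia also make, rose by 4.53 and 4.79 (adjusted p = 0.00051 and 0.00157), to means of 12.93 and 11.96, and Eomes fell by 5.17. Of 9 intestine markers on the array 0 passed the dim filter. Of 6 tested endoderm markers, 1 rose and 1 fell by day 4 (Gata6 by 4.37 and Cldn6 by 4.83), and of 4 tested neural markers 1 rose and 2 fell. Of 2 tested intermediate mesoderm markers 1 rose, which was Gata3 again. Each count stands against 13.3% and 13.6% of all genes. Gata3, Eomes, Tbx6, Pdgfra and Gata6 each stand in 2 lists, so the counts of different lists are not independent. The part of these cell types in the Cdx2 signal was not tested.

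The genes most like each member, by Pearson correlation of the log2 signal over the 16 arrays with values under 4 set to 4, are given as a description, since most arrays sit at the cutoff. Mixl1 and Mesp1 were most like Sp5 (0.992 for both) and each other (0.991), and Evx1 was most like Mesp1 (0.990), Sp5 (0.988) and Mixl1 (0.987). Lhx1 was most like Dll3 (0.999), Tmem91 (0.998) and Pgr (0.998), and Gsc most like Pnliprp2 (0.998), Car3 (0.994) and Fgf8 (0.992). Msgn1 was most like 6330509M05Rik (0.997), Cnpy1 (0.977) and Npas3 (0.973). Cdx2 was most like Hoxd9 (0.984), Smim10l2a (0.975) and Desi1 (0.965), and its correlations with the other members were lower, from 0.574 with Msgn1 to 0.796 with Mesp1.

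The members also differed among the day 4 cultures. Replicate A was the lowest of the 3 day 4 arrays for 7 of 7 tested members, as for 34.16% of all tested genes. Against the mean of B and C, it was lower by 3.77 log2 for Msgn1, whose value there was dim, and the difference was -2.89 for Lhx1, -2.57 for Gsc, -1.95 for Mesp1 and -1.18 for Mixl1. For Cdx2 it was -0.89 and for Evx1 -0.73, and the 5th and 95th percentiles of all tested genes were -0.76 and 0.57. Replicate A was also lowest for 10 of 13 T-box and other streak factors and 10 of 13 paraxial genes, but for 6 of 16 cardiac mesoderm genes and 2 of 10 Hox genes. Replicate A correlated at 0.968 and 0.964 with the day 6 arrays, B at 0.944 and 0.938 and C at 0.945 and 0.944. Pou5f1 read 9.92 in A, 11.62 in B and 12.14 in C. The part of these differences in the members' signals was not tested. Without day 4 replicate A, 7 of 7 members were still called higher at day 4, with rises from 3.74 for Msgn1 to 9.99 for Mixl1. In that fit 6 of 7 were called lower at day 6 than at day 4. All genes called higher at day 4 numbered 1442 in the main fit and 1240 to 1540 under the alternatives. Those called lower from day 4 to day 6 numbered 282 and 123 to 399. Both ranges include the fit without replicate A. The dim filter admitted the members through day 4 or shortly after, so their counts are a description.

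**Figure D5:**
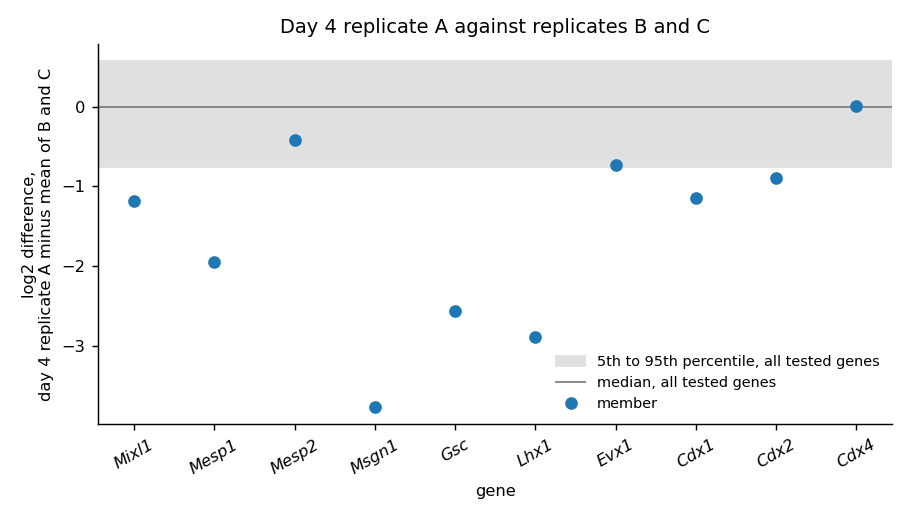
Log2 difference of day 4 replicate A from the mean of replicates B and C for each of the 10 members; the grey band spans the 5th to 95th percentile of all tested genes and the line is their median, -0.01. Msgn1, Lhx1, Gsc, Mesp1, Mixl1, Cdx1 and Cdx2 lie below the band, Evx1 and Mesp2 within its lower part and Cdx4 near 0.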

How the data were processed

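RNA was labelled from total RNA and hybridized to 16 Affymetrix mouse arrays, 1 per culture. The deposited table was used as given. Per the submitters' processing notes the authors' values come from GCRMA, which uses probe sequence to correct background, quantile-normalizes the arrays and gives 1 value per probe set; the version, scale and log base are not given in the sources used here. The deposited values, 0.863 to 15.9 with array medians of 3.16 to 3.27, were read as log2 signal from that range. Quantile normalization forces a common distribution and cannot show a change in total RNA, and low GCRMA values are compressed, so values under 4 were treated as dim.

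Of 45101 probe sets, 34945 name 1 gene, 932 several, 9160 none in the annotation used, and 64 are controls. Only single-gene probe sets above 4 on at least 2 arrays were tested, 1 per gene, that with the highest mean. limma 3.58.1 in R 4.3.3 fitted 1 mean per group to all 16 arrays (lmFit, then eBayes, with 10 residual degrees of freedom and a prior worth 3.53), tested on simulated data first. Besides the members, the text names the 3 genes most like each member and genes drawn from the 4 of each list with the largest called change at day 4 or day 12. Not all of these are described. Left out are, for example, Cdh2 (a rise of 6.98 at day 4 and 7.05 at day 12), Smarcd3 (5.16 at day 4) and Hand2 (8.76 at day 12). Markers that were dim, Krt18 and Irf1 were named after their values were seen. The members and lists were chosen with earlier results of these data known. Alternatives changed the filter, scaling, floor, variance model, replicate block, arrays fitted, probe set rule and each array in turn. The number of arrays limits the precision.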

Additional observations from a re-analysis of the deposited data

How the results depend on the processing

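No result reversed direction under the 26 alternatives to the model. Of the called members' differences, 973 values under an alternative kept their call and 29 lost it, all for Msgn1, Mixl1, Evx1 and Gsc. Msgn1 had a value under only 23 of the 26 alternatives. In the others it failed the dim filter and had no call, and these cases are in neither number. Members above growth at day 6 numbered 2 with values under 4 set to 4. Genes lower at day 6 than day 4 numbered 139 with only the groups compared and 123 to 399 with 1 array left out, against 282. From day 6 to day 8, members called lower numbered 0 with no dim filter, with median scaling, with values under 4 set to 4 and with only the groups compared, and 0 to 4 with 1 array left out. Over all genes the count was 1 with no dim filter, 5 with quantile normalization again, 1 with median scaling and 0 with only the groups compared, and 1 to 209 with 1 array left out. Differences between paralogs were planned as a test, but Mesp2, Cdx1 and Cdx4 sat at the cutoff, so the result would repeat the course of Mesp1 or Cdx2 and is not used. For Cdx1 minus Cdx4 the change from day 4 to later days was 0.10 with values under 4 set to 4 and 0.77 without, and the latter rests on dim values.

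Replicate letters recur across groups. Of 35 same-letter pairs, 13 correlated above 0.1 in their deviations from the group means (highest 0.32, median 0.06, against a median of -0.03 for other letters). The share of other-letter pairs above 0.1 was not counted, and whether a letter marks related samples was not tested. The main fit did not use the letters to pair samples. With the letter as a replicate block, 7 genes were lower at day 8 than day 6 in place of 2, and no count of members moved by over 1.5 times. Signals under the cutoff limit both the heights of the rises and any statement on Mesp2, Cdx1 and Cdx4.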
